A study of Homo sapiens with 21 samples.

Results

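The first 12 h after removal of the inducer were examined in cells that had been given a pulse of the transcription factor GSX2. Of the 21 RNA-seq libraries in the series, 6 were compared: 3 collected at the end of 12 h of doxycycline (Dox 12 h) and 3 collected at 24 h, which is 12 h after withdrawal (Dox 24 h). They were chosen by their labels, and the change between them is called the Dox step. The 3 libraries at 12 h and the 3 at 24 h that never received doxycycline (NoDox) cover the same hours of differentiation and give the NoDox step, which shares no library with the Dox step.

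All libraries came from H9, a human embryonic stem cell line, carrying a transgene for wild-type GSX2 with a doubled FLAG tag (TRE3G 2xFLAG-GSX2 WT). TRE3G is a promoter that is switched on by doxycycline. The cells were differentiated as a monolayer toward a fate resembling the lateral ganglionic eminence (LGE) in Essential 6 medium. The medium held the BMP receptor inhibitor LDN193189, the activin and TGF-beta receptor inhibitor SB431542 and the WNT pathway inhibitor XAV939 at first, later only the first pair of these, and at the end IWP2, which blocks WNT secretion, with Activin A. Doxycycline was given at 100 ng/mL from day 10. Every group carried the transgene, NoDox included, and no cells lacking it were treated, so the removal of the drug and the loss of the transgene product cannot be told apart in the Dox step. Whether the line was 1 clone is not in the labels, nor is the origin of the replicates. The p-values therefore measure the spread between these samples only, and it may be technical.

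The LGE is the part of the embryonic subpallium that produces striatal projection neurons and olfactory bulb interneurons. GSX2 is a homeodomain transcription factor of LGE progenitors. It is known for holding the dorsal, cortical programme out of the subpallium and for acting ahead of the DLX genes, which carry progenitors toward GABAergic neurons.

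Total counts in the 6 libraries ran from 17519026 to 24517717, and 3 counts, the floor used for a gene with no reads, corresponded to 0.107 to 0.153 CPM, the count scaled to the depth of the library. That floor covers counting error only. The Dox 12 h replicate 3 stood apart from the other libraries of its group, since the chi-square over its degrees of freedom (near 1 for sampling noise alone) was 26.8 and 16.7 for its pairs and 5.67 for the other pair. At Dox 24 h the 3 pairs gave 1.85 to 4.84. Without that library, 4082 genes were called higher and 3967 lower, where all libraries gave 4226 and 4156.

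The transgene and GSX2 reads show the withdrawal itself. Transgene reads (2xFLAG_GSX2_WT in the count table) were at 951, 932 and 745 CPM in the 3 Dox 12 h libraries and at 13.6, 19.6 and 25.2 CPM in the 3 Dox 24 h libraries. Reads counted for GSX2 (chr4:54099523-54102498, plus strand, hg38) went from 277, 289.7 and 296 to 4.04, 5.48 and 9.31 CPM, and no library of one group overlapped the other. The log2 fold change was -5.49 ± 0.18 for the transgene (edgeR adjusted p = 5.72e-14) and -5.53 ± 0.21 for GSX2 (edgeR adjusted p = 4.88e-13), where ± is an approximate standard error. GSX2 reads per transgene read were 0.292, 0.311 and 0.398 at Dox 12 h and 0.296, 0.279 and 0.369 at Dox 24 h. How many of the GSX2 reads came from the transgene is not known. Its paralog GSX1, also an LGE regulator, had 0 reads in each Dox 12 h library and 0, 0 and 1 at Dox 24 h, against 33, 26 and 31 in NoDox at 12 h and 58, 31 and 28 at 24 h, so it was not detectably back at 24 h at this depth. Summed over GSX2 and GSX1, the level was 4.04 to 9.36 CPM at Dox 24 h, below the 12.6 to 16.4 CPM of NoDox at 24 h.

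**Figure D1:**
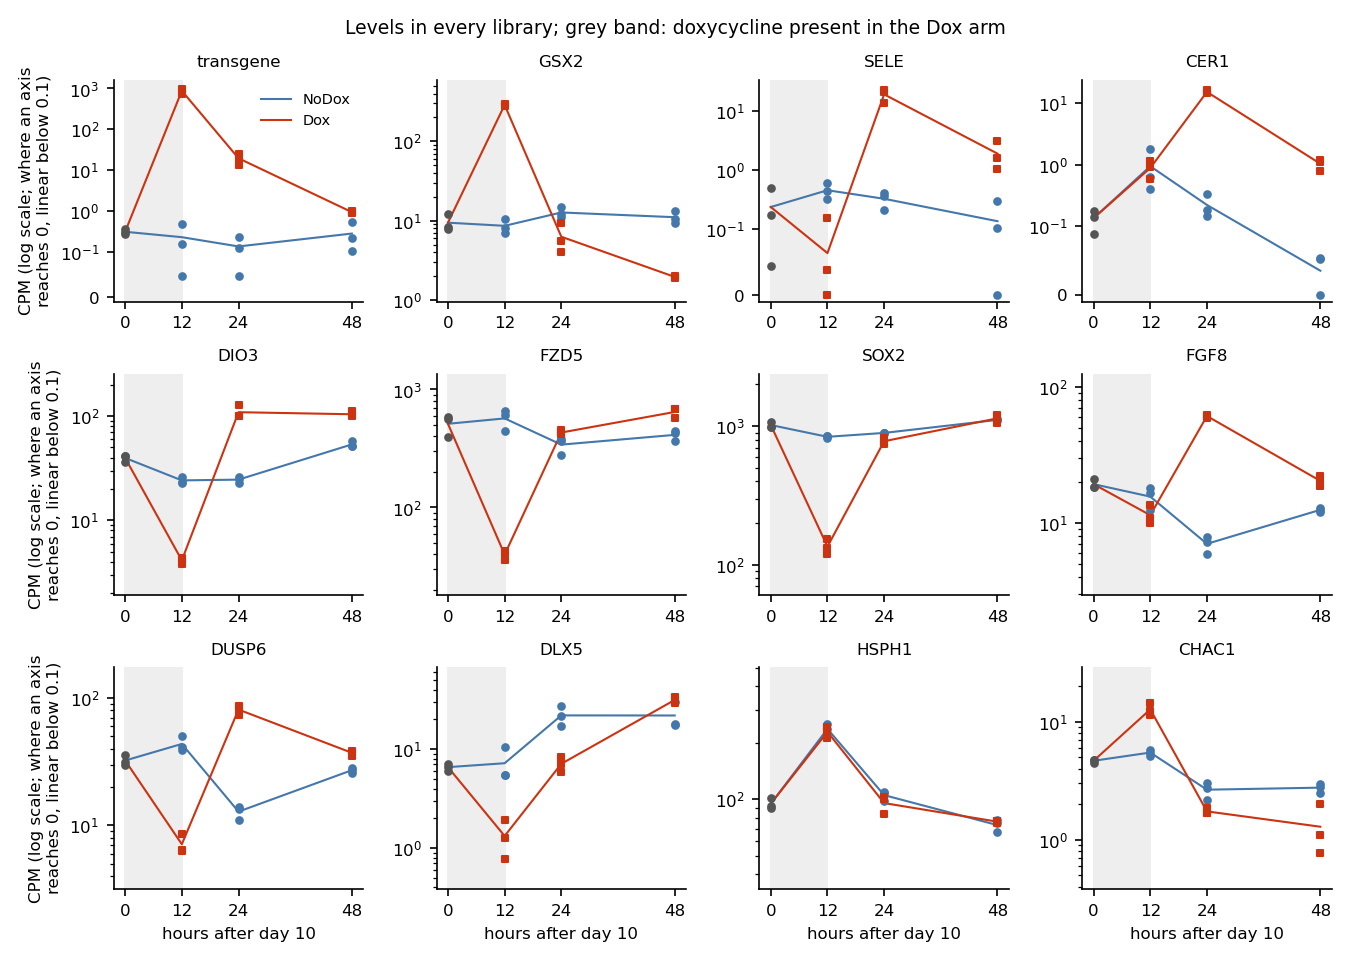
Level of 12 genes in every library (points, CPM on a log axis, linear below 0.1 where the axis reaches 0) against hours after day 10, with lines through the group means of 3 libraries; red is the Dox arm, blue the NoDox arm and grey the shared day 10 samples, and the grey band marks the 12 h of doxycycline. Transgene reads fall from a mean of 876 to 19.5 CPM between 12 and 24 h, SOX2 climbs from 135 to 779 CPM, and SELE, CER1 and FGF8 at 24 h lie above every NoDox library, while HSPH1 takes the same course in both arms.

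Withdrawal was followed by a broad change of the transcriptome. Of 19655 genes tested, 4226 were higher and 4156 lower at Dox 24 h than at Dox 12 h, which is 42.6% called in either direction, 21.5% higher and 21.1% lower (edgeR quasi-likelihood F test with Benjamini-Hochberg adjustment, adjusted p below 0.05). At least a 2-fold change was seen in 904 of the higher (4.6% of genes tested) and 710 of the lower genes (3.61%). These sets differed in abundance. The median gene that was at least 2-fold higher stood at 7.51 CPM at 24 h, and 162 of the 904 reached 100 CPM, whereas the median gene that was at least 2-fold lower stood at 1.53 CPM at 12 h and 4 of the 710 reached 100 CPM. With library totals as the only scaling, the split was 2415 higher and 7503 lower, 24.3% of calls higher against 50.4%, and the median log2 fold change of all genes was -0.19 in place of -0.01. All further values use TMM scaling, which sets the bulk of genes near 0.

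Over the same hours without doxycycline, 3523 genes were higher (17.9%) and 3371 lower (17.2%). Of the 4226 genes that rose in the Dox step, 1399 (33.1%) also rose in the NoDox step, 664 (15.7%) fell in it and 2163 (51.2%) did not pass its threshold. Of the 4156 genes that fell in the Dox step, 1134 (27.3%) also fell in the NoDox step, 442 (10.6%) rose in it and 2580 (62.1%) did not pass. Across the 19655 genes, which are not independent replicates, the log2 fold changes of both steps had a Pearson r of 0.161. A test of the difference of the steps called 3157 genes with a higher Dox step (16.1%) and 2917 with a lower one (14.8%). For that difference too, library totals alone turned the split toward lower calls, to 1914 higher and 5719 lower.

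**Figure D2:**
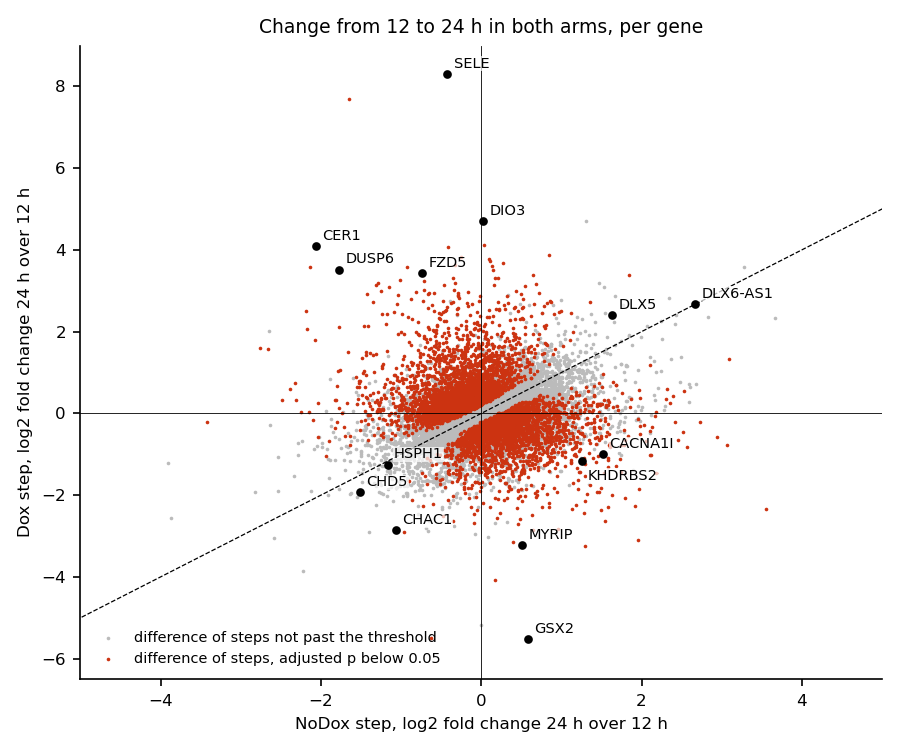
Each point is 1 of 19655 genes, with its log2 fold change from 12 to 24 h in NoDox on the x axis and in Dox on the y axis; red marks genes whose steps differ at an adjusted p below 0.05 and the dashed line marks equal steps. DIO3 and FZD5 lie high above the line near or left of 0, CER1 and DUSP6 lie in the upper left with opposite signs, and DLX6-AS1 and HSPH1 lie close to the line.

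The genes with the largest increases were led by SELE, E-selectin, an adhesion molecule of activated endothelium. It was at 0, 0.0385 and 0.153 CPM at Dox 12 h, 4 reads in all, and at 13.6, 22.4 and 21.2 CPM at Dox 24 h. The fitted log2 fold change of 8.30 ± 0.51 (edgeR adjusted p = 1.47e-11) rests on those 4 reads and is imprecise. It was 7.67 without Dox 12 h replicate 1 and 9.62 without replicate 3. NoDox means were 0.457 CPM at 12 h and 0.328 CPM at 24 h, and at Dox 48 h SELE was at 1.90 CPM. Of the 10 endothelial and blood markers tested, 3 were higher (SELE, the VEGF receptor KDR by 2.65 ± 0.20 and the transcription factor LMO2 by 2.24 ± 0.16) and 1 was lower, the VEGF receptor FLT1 (-1.89 ± 0.67). That is 40.0% of the list called, near the 42.6% of all genes tested (21.5% higher and 21.1% lower). The FLT1 call was lost without Dox 12 h replicate 3 (edgeR adjusted p = 0.0704) and without Dox 24 h replicate 1 (0.124) or replicate 2 (0.11), and its value was -3.53 without Dox 24 h replicate 3. The summed level of the list was 36.3 to 40.1 CPM at Dox 12 h and 90.1 to 109.6 CPM at Dox 24 h. CDH5, the cadherin of endothelial junctions, stood at 0.787, 0.462 and 0.510 CPM at 12 h and at 0.330, 0.348 and 0.769 CPM at 24 h, which overlap. The markers PECAM1, ERG, TAL1, HBE1 and PTPRC had too few reads to be tested. The part of endothelial cells in the SELE result was not tested.

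CER1, a secreted antagonist of nodal, BMP and WNT signals, went from 1.14, 0.577 and 0.917 CPM to 16.0, 14.3 and 14.8 CPM, a log2 fold change of 4.08 ± 0.26 (edgeR adjusted p = 2.76e-13). In NoDox it went the other way, from a mean of 0.940 to 0.221 CPM (-2.07 ± 0.47, edgeR adjusted p = 0.00109). FOXI1, a forkhead factor of otic placode and ion-transporting epithelia, stood at 0.751, 1.19 and 1.27 CPM before and 11.2, 9.44 and 9.68 CPM after withdrawal, against a day 10 mean of 0.235 CPM. FAM181B rose from 0.930, 0.654 and 1.38 to 17.8, 14.2 and 16.6 CPM, a log2 fold change of 4.07 ± 0.19. None of these 4 genes, SELE included, had a NoDox or day 10 mean above 2 CPM, and their Dox 24 h libraries lay above every NoDox and day 10 library. At Dox 48 h their means were 1.90 (SELE), 1.03 (CER1), 0.716 (FOXI1) and 1.66 CPM (FAM181B).

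To show the sequence in front of the genes that changed most, the 250 bases before the start were read from RefSeq (GRCh38.p14) for 21 of the 28 genes with the largest changes. They were searched for TAATTA, a core that many homeodomain proteins can bind and that reads the same on both strands. It occurred in 3 of the 21, and in 1054 of 22114 RefSeq promoters of that length (4.77%). The 3 are printed 5′ to 3′ on the gene's strand with the core in capitals: SELE at chr1:169734080-169734329 (minus strand), CER1 at chr9:14722734-14722983 (minus strand) and PLCG2, a phospholipase gene that fell, at chr16:81738791-81739040 (plus strand).
SELE: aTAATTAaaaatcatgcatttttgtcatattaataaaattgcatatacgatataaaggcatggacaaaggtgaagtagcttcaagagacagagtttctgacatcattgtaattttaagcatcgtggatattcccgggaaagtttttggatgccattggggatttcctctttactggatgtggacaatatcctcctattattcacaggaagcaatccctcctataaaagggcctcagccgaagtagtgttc
CER1: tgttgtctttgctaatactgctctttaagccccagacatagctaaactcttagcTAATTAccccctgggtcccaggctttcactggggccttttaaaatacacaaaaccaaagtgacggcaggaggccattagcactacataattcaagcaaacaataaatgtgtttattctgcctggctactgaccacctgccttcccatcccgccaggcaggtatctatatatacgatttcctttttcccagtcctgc
PLCG2: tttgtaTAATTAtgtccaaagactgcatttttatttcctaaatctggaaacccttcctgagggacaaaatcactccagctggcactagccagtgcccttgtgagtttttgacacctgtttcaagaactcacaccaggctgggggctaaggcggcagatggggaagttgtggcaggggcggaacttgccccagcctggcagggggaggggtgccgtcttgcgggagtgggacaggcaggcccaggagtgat
The CER1 window ends at the start of the gene in the count table (chr9:14719724-14722733), whereas the count table's spans for SELE (chr1:169722640-169764705) and PLCG2 (chr16:81779279-81962685) begin elsewhere. A match of these letters is a description and not a binding site.

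Other large increases started from a Dox 12 h mean below the day 10 and NoDox 12 h means. DIO3, the deiodinase that inactivates thyroid hormone, rose from 4.40, 4.20 and 3.82 CPM to 127, 99.4 and 99.7 CPM (4.71 ± 0.11 on the log2 scale, edgeR adjusted p = 3.97e-23). Its NoDox means were 24.2 and 24.6 CPM at 12 and 24 h, so the Dox arm went from below to above the uninduced means. FZD5, a WNT receptor of the early eye field and forebrain, rose from 41.2, 42.5 and 36.0 to 424, 452 and 419 CPM (3.43 ± 0.17), against NoDox means of 569 and 341 CPM. The cell-surface genes SLITRK2 (3.62 ± 0.13), LRRC3B (3.83 ± 0.14) and LRRTM3 (3.30 ± 0.18), the kainate receptor subunit GRIK3 (3.30 ± 0.16) and the cadherin CDH6 (3.19 ± 0.14) also rose. In LRRC3B the 3 libraries went from 2.40, 2.00 and 2.14 to 30.3, 32.0 and 31.0 CPM, and in CDH6 from 5.19, 4.54 and 5.05 to 42.0, 48.0 and 45.0 CPM. Of the 14 genes with the largest increases, 11 had a Dox 24 h mean above day 10 and above every NoDox mean, and the means of 12 were lower at Dox 48 h than at Dox 24 h. FZD5 (645 CPM) and SLITRK2 (70.0 CPM) were higher still at 48 h. All 14 had a Dox step that differed from the NoDox step by the test of the difference, and 7 of them fell in NoDox. That test contains the Dox step by which the 14 were chosen, so it is not independent of the choice. The choice also favours a high Dox 24 h mean, so the counts of levels depend on it too.

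DIO3 and RTL1 lie in 1 imprinted cluster, between DLK1 and DIO3 on chromosome 14 (chr14:100725705-101620355, hg38). The other genes of that interval were chosen after the values of this pair had been seen. All 9 features tested there rose in the Dox step, with a median log2 fold change of 2.00, where 21.5% of all genes rose. That count and median include DIO3 and RTL1, which were named for the size of their rise. RTL1, a retrotransposon-derived gene known from placenta and muscle, went from 113, 98.6 and 102 to 1042, 912 and 895 CPM (3.18 ± 0.08, edgeR adjusted p = 2.46e-22). The noncoding gene MEG3 went from 43.9, 47.5 and 44.8 to 182, 180.3 and 183 CPM (2.00 ± 0.13), and DLK1, a Notch-ligand-like membrane protein, from 3382, 3974 and 4561 to 8912, 8624 and 8485 CPM (1.13 ± 0.09). In the NoDox step 1 of the 9 rose and 2 fell, and the difference of the steps was called higher for 8. MIR493HG, the remaining one, rose by 0.77 ± 0.26 in Dox and had a NoDox value of 0.24 ± 0.28. Several of these genes overlap on opposite strands, such as RTL1 with MEG8 and DIO3 with DIO3OS, and how strand was used in counting is not given in the sources used here.

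**Figure D3:**
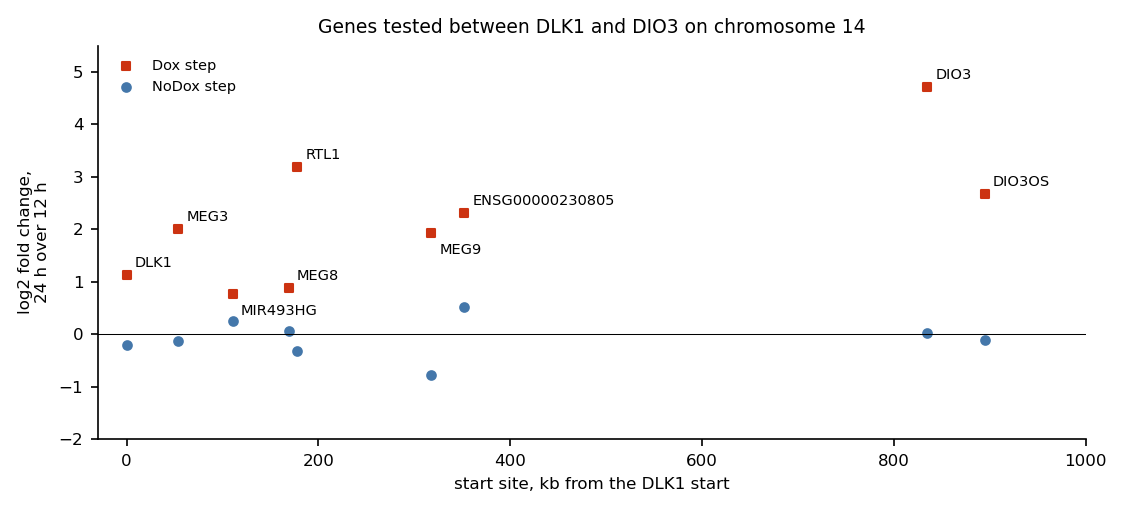
Log2 fold change from 12 to 24 h (y axis) of the 9 features tested between DLK1 and DIO3, against the distance of their start from the DLK1 start in kb (x axis); red squares are the Dox step and blue circles the NoDox step. All red squares lie above 0, from 0.77 for MIR493HG to 4.71 for DIO3, and the blue circles lie between -0.78 for MEG9 and 0.51.

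The largest decreases after GSX2 itself were in genes of low abundance. MYRIP, a myosin and Rab adaptor of secretory granules, fell from 3.36, 2.58 and 2.65 to 0.247, 0.565 and 0.0904 CPM (-3.22 ± 0.35, edgeR adjusted p = 1.15e-08), and without Dox 24 h replicate 2 the value was -4.02. CHAC1, a glutathione-degrading enzyme induced by ATF4, fell from 11.4, 14.4 and 12.2 to 1.85, 1.70 and 1.67 CPM (-2.86 ± 0.18), and ULBP1, a stress ligand of natural killer cells, from 3.93, 2.81 and 3.47 to 0.536, 0.348 and 0.769 CPM (-2.62 ± 0.31). In all 3 genes the groups were wholly apart, as the rule for naming them required. PLCG2 fell from 8.44, 6.54 and 6.17 to 1.28, 1.61 and 2.03 CPM (-2.11 ± 0.26). Further decreases among the 14 largest were found for the guanine exchange factor DOCK10 (-2.23 ± 0.28), the immune checkpoint gene VSIR (-2.20 ± 0.31), SUSD3 (-2.19 ± 0.37), DENND2C (-2.08 ± 0.36), SUSD5 (-2.05 ± 0.23), the interleukin receptor IL10RA (-1.96 ± 0.33), the calcium channel TRPV6 (-1.95 ± 0.34), the chromatin remodeller CHD5 (-1.93 ± 0.19) and the potassium channel KCNA2 (-1.90 ± 0.34). All 14 of these genes, GSX2 included, had a Dox 12 h mean above day 10 and above every NoDox mean. The difference from the NoDox step was called for 9 of the 14 and was not for DOCK10, VSIR, SUSD5, TRPV6 and CHD5. Here too the test contains the Dox step by which the genes were chosen. The choice also favours a high Dox 12 h mean, so the count of levels depends on it.

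Regulators that define the LGE and the forebrain rose together. Of 23 LGE and subpallial regulators tested, 19 rose and 0 fell, with a median log2 fold change of 2.02, where 21.5% of all genes rose and the median of all genes was -0.01. In the NoDox step 12 of the 23 rose and 1 fell, and the Dox step was called above the NoDox step for 11 and below it for 1. ISL1, which marks LGE-derived striatal neurons, rose from 0.322, 0.115 and 0.306 to 3.01, 3.26 and 2.85 CPM (3.60 ± 0.30, edgeR adjusted p = 8.77e-11), with NoDox means of 4.66 and 5.03 CPM. DLX1 rose from 26.5, 18.7 and 16.8 to 129, 98.7 and 89.7 CPM (2.34 ± 0.23) and DLX2 from 25.3, 18.0 and 22.0 to 110.5, 82.3 and 71.7 CPM (2.02 ± 0.28). In both DLX genes the Dox 24 h libraries lay above the NoDox 24 h means of 45.8 and 61.0 CPM. The GABA-synthesis enzyme GAD2 (2.60 ± 0.27), OLIG1 (2.69 ± 0.20), the homeobox gene VAX1 (2.51 ± 0.10) and SP8 (2.05 ± 0.07) rose as well. ZNF503, BCL11B, FOXP2 and RARB, factors of striatal differentiation, did not pass, with values between -0.05 (ZNF503) and -0.83 (RARB).

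Among markers of the labelled cell type, GSX2 says nothing here, since its reads may be those of the transgene. At Dox 12 h the mean was 103 CPM for SIX3, 46.3 CPM for SP8, 44.5 CPM for PAX6 and 12.5 CPM for MEIS2. Other forebrain progenitors express some of these genes, so their presence does not single out LGE cells. SOX2, which maintains neural progenitors, went from 120.2, 133 and 153 to 827, 761 and 748 CPM (2.53 ± 0.08, edgeR adjusted p = 4.85e-21) with NoDox means of 838 and 894 CPM. PAX6 (1.55 ± 0.07) and MEIS2 (0.90 ± 0.09) rose less, and their Dox 24 h means of 130.3 and 23.4 CPM were still below the NoDox 24 h means of 247 and 41.3 CPM. In bulk RNA, more cells that express a gene and more of its RNA per cell cannot be told apart.

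Of 19 anterior forebrain regulators tested, 16 rose and 0 fell in the Dox step, with a median of 1.03, while 0 rose and 8 fell in the NoDox step. RAX (1.94 ± 0.15, edgeR adjusted p = 1.49e-11), which specifies the eye field and hypothalamus, SIX3 (1.92 ± 0.09) and OTX2 (1.82 ± 0.06) were among those that rose. At Dox 24 h, SIX3 was at 388, 395 and 383 CPM, above its NoDox 24 h mean of 209 CPM, and RAX was at 12.7, 16.8 and 16.6 CPM, above 6.20 CPM. The difference of the steps was called higher for 16 of the 19. Of 16 markers of diencephalon, hypothalamus and eye field, 10 rose and 1 fell (POMC). Their summed level was 189 to 195 CPM at Dox 12 h and 625 to 699 CPM at Dox 24 h, against 930.1 to 966 and 890.1 to 953 CPM in NoDox, and their part in the forebrain results was not tested.

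Dorsal pallial regulators rose in 19 of 23 genes with 0 lower and a median of 1.36. In the NoDox step 6 rose and 4 fell, and the difference was called higher for 15 and lower for 0. Their levels relative to NoDox differed from gene to gene. LHX2, a cortical selector gene, went from 114, 109 and 127 to 414, 362 and 353 CPM (1.69 ± 0.09), above its NoDox 24 h mean of 223 CPM. FEZF2, which specifies deep-layer cortical neurons, rose by 2.17 ± 0.08 to a mean of 106 CPM against 33.3 CPM in NoDox. EOMES, the marker of cortical intermediate progenitors, went from 1.75, 1.42 and 1.33 CPM to a mean of 9.10 CPM (2.58 ± 0.20) and stayed under its NoDox 24 h mean of 90.0 CPM. EMX2, a regulator of cortical area identity, went from 9.30, 8.93 and 10.4 to 25.1, 18.8 and 17.3 CPM (1.11 ± 0.11, edgeR adjusted p = 1.36e-08) against 314 CPM. FEZF1 (2.36 ± 0.07) reached 207 against 496 CPM. At Dox 48 h, EOMES was at a mean of 13.3 CPM and EMX2 at 145 CPM, both still below NoDox means of 48.5 and 379 CPM.

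**Figure D4:**
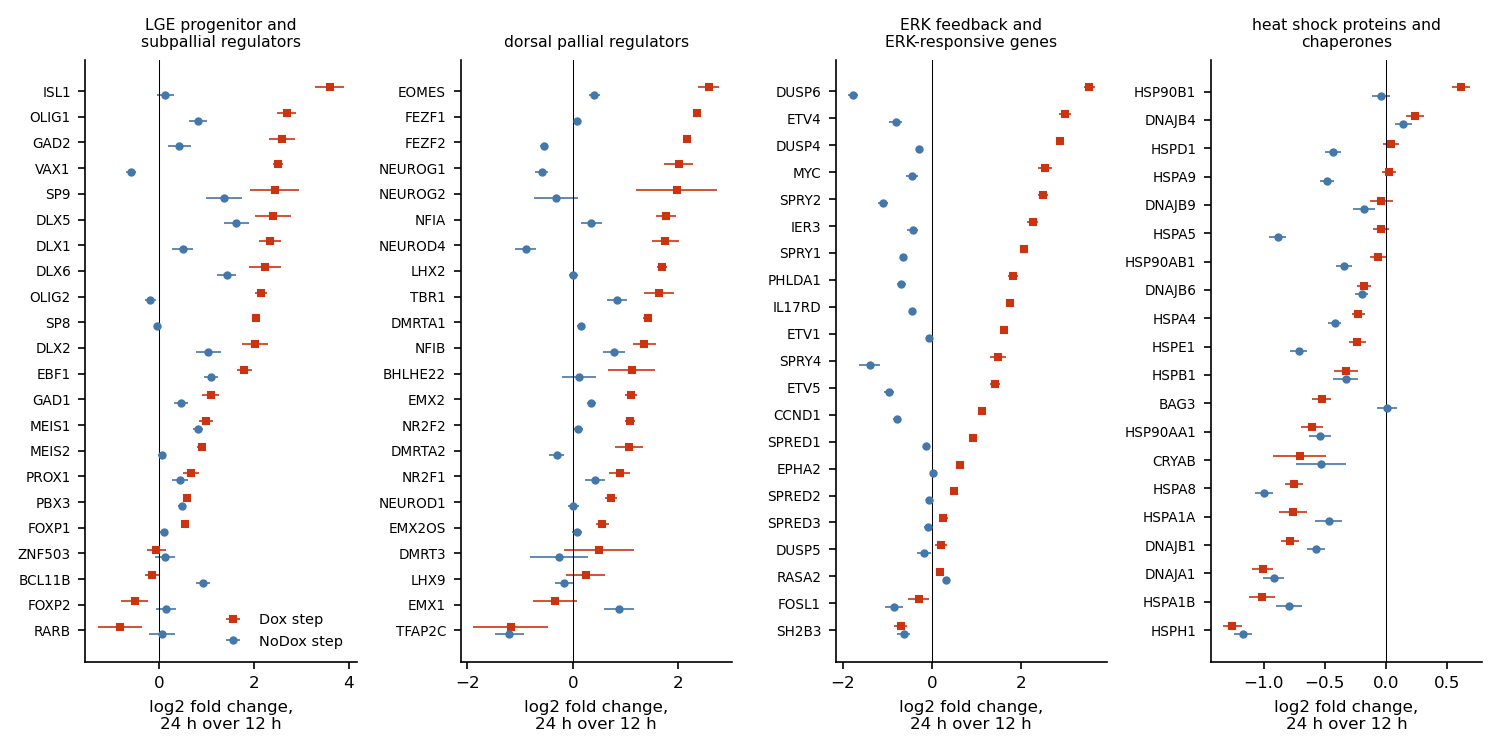
Log2 fold change from 12 to 24 h with its standard error for the tested members of 4 gene lists (some are not shown), in the Dox step (red squares) and the NoDox step (blue circles), sorted by the Dox step. LGE and dorsal pallial regulators lie to the right in the Dox step, ERK-responsive genes are right in Dox and mostly left of 0 in NoDox, and most heat shock genes lie left of 0 in both steps.

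Neural progenitor and neurogenic genes rose as well. Of 28 progenitor and radial glia genes, 22 rose and 2 fell (median 0.94), and of 30 genes that start neurogenesis 27 rose and 0 fell (median 1.23). Of all genes, 21.5% rose and 21.1% fell. SOX21, a SOXB2 factor that promotes differentiation, rose from 3.76, 4.62 and 5.20 to 24.5, 23.1 and 20.3 CPM (2.34 ± 0.12, edgeR adjusted p = 5.52e-15) and remained below its NoDox 24 h mean of 78.4 CPM. SOX4, a factor of newborn neurons, rose from 138, 137 and 141 to 768, 706 and 690.4 CPM (2.38 ± 0.08). NEUROG1, a proneural factor of the dorsal telencephalon, rose from 0.715, 0.423 and 0.255 to 1.81, 1.74 and 2.40 CPM (2.01 ± 0.28) while NoDox means were 21.7 and 14.4 CPM. Of 25 genes of postmitotic neurons, 14 rose and 0 fell (median 0.45), with 18 higher and 0 lower in the NoDox step and 12 and 3 in the Dox step with library totals as the only scaling.

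Of 23 Notch genes 13 rose and 3 fell (median 0.40), where 21.5% of all genes rose and 21.1% fell. With library totals as the only scaling 12 rose and 7 fell. In the NoDox step 6 rose and 9 fell. The ligands JAG1 (1.70 ± 0.09) and DLL1 (1.16 ± 0.06) and the targets HES1 (1.08 ± 0.11) and HEY1 (1.26 ± 0.07) rose. HES5, a Notch target of neural progenitors, was at 96.8, 94.1 and 96.3 CPM at 12 h and 106, 96.0 and 101 CPM at 24 h and did not pass (0.08 ± 0.08, edgeR adjusted p = 0.421). The lower genes were the receptor NOTCH3 (-0.46 ± 0.08), the ligand JAG2 (-0.55 ± 0.08) and DTX1 (-0.37 ± 0.10).

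Genes downstream of the ERK kinase pathway rose with withdrawal and fell without doxycycline. ERK relays FGF receptor signals, and its feedback inhibitors are used as readouts of its activity. Of 21 ERK feedback and ERK-responsive genes, 17 rose and 1 fell in the Dox step (median 1.48), while 1 rose and 14 fell in the NoDox step (median -0.45). The difference of the steps was called higher for 16 and lower for 0, where 16.1% of all genes were called higher. DUSP6, the phosphatase that inactivates ERK, rose from 6.47, 6.35 and 8.56 to 73.6, 86.3 and 82.4 CPM (3.52 ± 0.12, edgeR adjusted p = 1.41e-19) and fell in NoDox from 38.9, 50.4 and 41.1 to 11.0, 14.1 and 13.4 CPM (-1.77 ± 0.11, edgeR adjusted p = 5.32e-12). The Dox libraries thus went from below every NoDox library at 12 h to above every one at 24 h. The transcription factor ETV4 rose from 8.94, 12.9 and 10.2 to 83.8, 83.5 and 83.0 CPM (2.96 ± 0.13) and fell in NoDox (-0.81 ± 0.14). DUSP4 rose from 47.1, 52.5 and 53.9 to 365, 374 and 375 CPM (2.86 ± 0.07), and the receptor pathway inhibitor SPRY2 from 24.9, 28.2 and 31.6 to 142, 166 and 160.3 CPM (2.47 ± 0.11). MYC (2.53 ± 0.16), IER3 (2.25 ± 0.13), SPRY1 (2.06 ± 0.07) and ETV5 (1.41 ± 0.10) rose too, SH2B3 fell (-0.70 ± 0.14), and DUSP5 (0.20), RASA2 (0.17) and FOSL1 (-0.30) did not pass.

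The ligand FGF8, made by the rostral forebrain signalling centre, rose from 9.94, 10.8 and 13.6 to 62.7, 59.3 and 61.7 CPM (2.43 ± 0.11, edgeR adjusted p = 2.35e-16) and fell in NoDox from 12.4, 18.0 and 16.5 to 5.89, 7.93 and 7.31 CPM (-1.17 ± 0.13). Among 18 FGF ligands, receptors and binding proteins, 8 rose and 4 fell, where 21.5% of all genes rose and 21.1% fell. Their median of 0.15 turned to -0.03 with library totals as the only scaling. The FGF carrier FGFBP3 (2.57 ± 0.08) and the receptors FGFR2 (1.22 ± 0.10) and FGFR1 (0.94 ± 0.06) rose, and FGF18 (-1.01 ± 0.21), FGFRL1 (-0.59 ± 0.06), FGF12 (-0.73 ± 0.21) and FGFR4 (-0.33 ± 0.09) fell. Of 25 immediate early genes, which many stimuli switch on within minutes, 16 rose and 1, ARC, fell. JUN went from 30.4, 36.2 and 36.2 to 86.8, 76.6 and 80.9 CPM (1.25 ± 0.07), CCN1 rose by 1.69 ± 0.07, and FOS went from 11.9, 22.5 and 23.9 to 37.0, 38.0 and 41.8 CPM (1.02 ± 0.22).

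The frizzled receptors of the WNT pathway FZD1, FZD2, FZD3, FZD4, FZD5, FZD7 and FZD8 rose, FZD9 fell and FZD6 did not pass. Of 35 WNT ligands, receptors and antagonists, 17 rose and 4 fell (median 0.52), whereas 4 rose and 20 fell in the NoDox step. Of all genes, 21.5% rose and 21.1% fell in the Dox step. With library totals as the only scaling 17 rose and 7 fell in the Dox step. FZD8 went from 31.8, 26.2 and 33.1 to 222, 207 and 209 CPM (2.81 ± 0.07, edgeR adjusted p = 2.15e-22) and FZD7 from 72.6, 70.0 and 67.2 to 185, 193 and 197 CPM (1.45 ± 0.06). Among ligands WNT7B (1.54 ± 0.11), WNT8B (2.43 ± 0.52) and WNT5B (0.57 ± 0.07) rose, and WNT4 (-1.92 ± 0.35) and WNT3A (-0.55 ± 0.18) fell. Of 13 WNT target genes 4 rose and 5 fell (median -0.15), and in the NoDox step 1 rose and 8 fell (median -0.36). The difference of the steps was called higher for 6 and lower for 3. The feedback inhibitors NKD1 (-1.33 ± 0.11) and NOTUM (-1.87 ± 0.43) fell, and the stem cell receptor LGR5 rose (1.37 ± 0.17). The NoDox values of WNT4 and NOTUM were -1.28 and -1.53, and their differences did not pass (edgeR adjusted p = 0.258 and 0.788). Those of NKD1 (-1.39) and LGR5 (1.88) passed.

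In the BMP and activin family the ligand BMP2 rose from 7.83, 7.62 and 8.41 to 74.0, 69.4 and 66.6 CPM (3.14 ± 0.10, edgeR adjusted p = 1.33e-20), and its antagonist NOG rose from 5.62, 4.70 and 4.69 to 38.0, 38.5 and 37.7 CPM (2.92 ± 0.10). BMP2 at 24 h was above its NoDox mean of 7.39 CPM and NOG above 18.3 CPM. TGFB2 rose from a mean of 1.28 to 9.64 CPM (2.90 ± 0.15). FST, which traps activin, fell from 49.9, 48.0 and 54.7 to 29.3, 33.8 and 34.5 CPM (-0.64 ± 0.08), and the BMP antagonist CHRD fell as well (-0.69 ± 0.11). Over all 28 ligands and antagonists, 11 rose and 6 fell, where 21.5% of all genes rose and 21.1% fell. With library totals as the only scaling 7 rose and 8 fell, which turned the median from 0.11 to -0.07. Of 16 target genes 6 rose and 4 fell, with ID4 higher (1.28 ± 0.08) and ID1 lower (-1.27 ± 0.19). In the NoDox step 1 of the 16 rose and 8 fell. ID1 gave -0.68 there, and its difference of the steps did not pass (edgeR adjusted p = 0.124), whereas that of ID4 (1.66) passed.

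Genes for axon guidance, adhesion and matrix rose. In the guidance list 27 of 41 rose and 0 fell (median 0.95), in collagens, laminins and matrix genes 27 of 36 rose and 0 fell (median 0.45), and in cadherins and protocadherins 18 of 32 rose and 2 fell (median 0.58). With library totals as the only scaling the counts were 27 higher and 6 lower for guidance, 19 and 2 for matrix, and 16 and 6 for cadherins. The semaphorin receptor NRP2 went from 15.1, 16.8 and 13.2 to 122, 116 and 108 CPM (2.94 ± 0.13, edgeR adjusted p = 4.83e-14), and SEMA6A from 51.7, 49.7 and 41.8 to 338, 326 and 299.8 CPM (2.75 ± 0.12). The repellents SLIT1 (2.47 ± 0.15) and SLIT3 (2.56 ± 0.15) rose as well. CDH18, a neuronal cadherin, fell from 0.823, 0.808 and 0.816 to 0.0412, 0.0870 and 0 CPM. The last group held 3 reads in all against 60, a ratio of 0.053 with an exact 95% counting interval of 0.0106 to 0.163. Of 8 mesenchymal markers, a source of matrix transcripts, 3 rose and 1 fell, and 1 rose and 3 fell with library totals as the only scaling. Their summed level was 1066 to 1490.0 CPM at Dox 12 h and 1633 to 2131 CPM at Dox 24 h, and their part in the matrix result was not tested.

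Genes of glycolysis and of cholesterol synthesis rose. Of 29 hypoxia and glycolysis genes 28 rose and 0 fell (median 0.60), with 20 higher and 3 lower in NoDox. The glucose transporter SLC2A1 went from 1030.3, 998 and 848 to 3569.8, 3536 and 3522 CPM (1.89 ± 0.08, edgeR adjusted p = 7.61e-18), where the NoDox step was -0.17 ± 0.08. VEGFA rose from 191, 203 and 174 to 439, 410.2 and 429.6 CPM (1.17 ± 0.08). The difference from the NoDox step was called higher for 12 of the 29, where 16.1% of all genes were called so. Of 28 cholesterol synthesis genes and SREBP targets 24 rose and 0 fell (median 0.77), and 22 had a Dox step called above the NoDox step. HMGCS1, an early enzyme of the mevalonate pathway, went from 452, 470.3 and 474 to 1272, 1283 and 1266 CPM (1.45 ± 0.06), the desaturase SCD rose by 1.55 ± 0.08 and the sterol sensor partner INSIG1 by 1.43 ± 0.07.

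Most stress genes that passed the threshold fell. In heat shock proteins and chaperones 13 of 20 fell and 2 rose (median -0.28), and in the NoDox step 16 fell and 0 rose (median -0.48). The Dox step was called above the NoDox step for 6 of the 20 and below it for 1. HSPH1 fell from 243, 211 and 231 to 83.3, 100.5 and 103 CPM in Dox (-1.26 ± 0.08, edgeR adjusted p = 4.79e-14) and from 251, 236 and 223 to 98.4, 109.6 and 108 CPM in NoDox (-1.17 ± 0.08). The difference of the steps, -0.09 ± 0.11, did not pass (edgeR adjusted p = 0.579). HSP90B1, a chaperone of the endoplasmic reticulum, rose instead, from 582, 609 and 746 to 993, 1003 and 968 CPM (0.61 ± 0.07), and HSPA5, another one, was at 490.4, 499 and 556 CPM and then 477, 523 and 505 CPM. Of 24 genes of the ATF4 stress response 14 fell and 3 rose (median -0.31), with 14 lower and 2 higher in NoDox. The difference of the steps was called higher for 5 and lower for 7. The summed level of the list was higher at Dox 24 h (2090 to 2312 CPM) than at Dox 12 h (1875 to 2046 CPM). After CHAC1, the cystine transporter SLC7A11 (-1.60 ± 0.31), SESN2 (-1.18 ± 0.09) and the serine pathway enzyme MTHFD2 (-0.96 ± 0.09) fell. SLC7A11 gave -1.11 in the NoDox step, and its difference of the steps did not pass (edgeR adjusted p = 0.422). The differences of CHAC1 and SESN2 were called lower. DDIT4, an mTOR inhibitor that hypoxia also induces, rose from 257, 276 and 251 to 665, 706 and 746 CPM (1.43 ± 0.09). Among 16 NF-kB and interferon genes tested, 7 fell and 1 rose, that one being SELE, with IRF1 from 4.40, 4.62 and 4.33 to 1.57, 1.26 and 1.67 CPM (-1.57 ± 0.20).

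**Figure D5:**
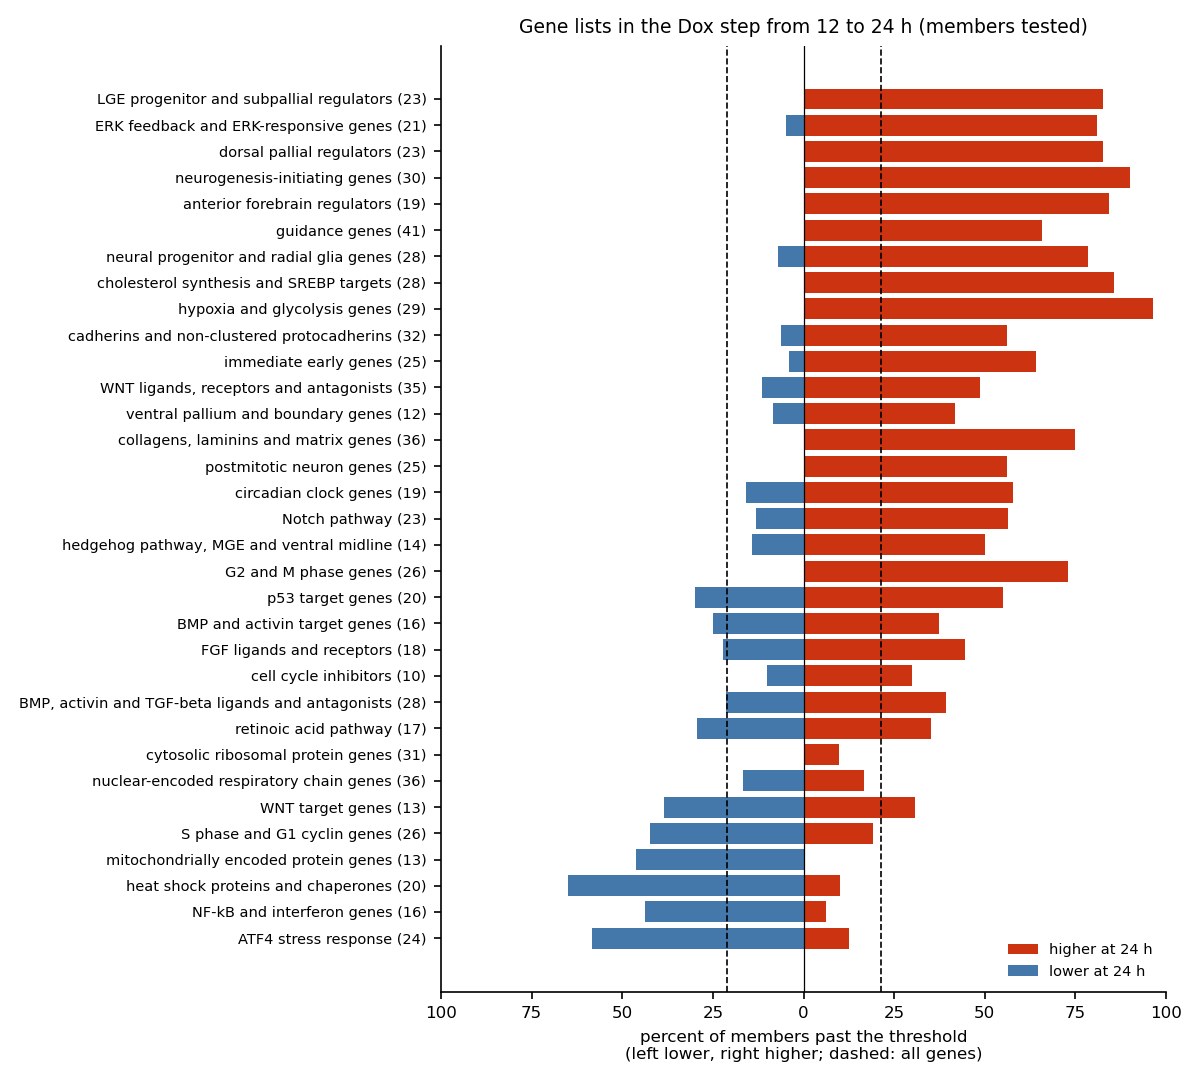
Percent of the tested members (number in parentheses) of each gene list that were lower (blue, left) or higher (red, right) at Dox 24 h than at Dox 12 h, sorted by the median log2 fold change; dashed lines mark all genes tested, 21.5% higher and 21.1% lower. Regulators, ERK-responsive, cholesterol and glycolysis genes stand far to the right of the dashed line, and heat shock, ATF4 and NF-kB genes to the left.

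The medians of the G2 and M phase list and of the S phase list were small. In G2 and M phase genes 19 of 26 rose and 0 fell (median 0.32), close to the 20 higher and 0 lower of the NoDox step, and 11 rose with library totals as the only scaling. KIF20A, a mitotic kinesin, went from 49.5, 57.4 and 59.3 to 104, 104 and 101 CPM (0.89 ± 0.08). In S phase and G1 cyclin genes 5 of 26 rose and 11 fell (median -0.17), whereas in NoDox 1 rose and 20 fell. CCND1, the G1 cyclin induced by ERK, rose from 188, 191 and 171 to 385, 395 and 409.5 CPM (1.11 ± 0.07, edgeR adjusted p = 3.69e-13) and fell in NoDox (-0.79 ± 0.07). The replication helicase gene MCM7 rose in Dox (0.66 ± 0.06) and fell in NoDox (-0.31 ± 0.06), and PCNA, the replication clamp, was at 109.7, 114 and 134 CPM and then 88.7, 113 and 115 CPM in Dox and fell in NoDox (-0.71 ± 0.09). Of 10 cell cycle inhibitors, CDKN1C (1.43 ± 0.09), CDKN1A (0.91 ± 0.09) and RBL2 (0.26 ± 0.07) rose and RB1 fell (-0.31 ± 0.07). With library totals as the only scaling RBL2 gave 0.09 and did not pass (edgeR adjusted p = 0.337).

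Some genes moved the same way in both arms, with no difference called between the steps. DLX6-AS1, a noncoding RNA across the DLX5 and DLX6 locus, rose from 7.69, 2.42 and 2.14 to 40.6, 22.3 and 18.9 CPM in Dox (2.68 ± 0.53, edgeR adjusted p = 0.000816) and from 57.5, 23.9 and 22.3 to 302, 185 and 168 CPM in NoDox (2.67 ± 0.41). The estimated steps differed by 0.01 ± 0.55. Without Dox 12 h replicate 1 the Dox step was 3.58 (edgeR adjusted p = 0.000564), and without Dox 24 h replicate 1 it was 2.27 (edgeR adjusted p = 0.00538). In both NoDox groups replicate 1 was the highest library, and the main fit used no pairing by replicate number. It was the highest library of both Dox groups too, so leaving out either Dox one moved the estimate. The near equality of the Dox and NoDox steps is therefore imprecise. All Dox libraries lay below all NoDox libraries of their time. DLX5 (2.40 ± 0.37 in Dox, 1.63 ± 0.26 in NoDox) and DLX6 (2.23 ± 0.33 and 1.42 ± 0.21) rose in both arms. DLX6-AS1 overlaps DLX5 and DLX6 on the chromosome, so their reads may be shared if counting did not use strand. CHD5, SUSD5, DOCK10 and CRYBA1, a lens crystallin gene, fell in both arms, the last with a log2 fold change of -1.67 ± 0.26 in Dox and -1.48 ± 0.22 in NoDox. The orphan receptor ADGRL4 gave -1.26 ± 0.27 and -1.27 ± 0.26. The differences of the steps of these genes ran from -0.91 ± 0.40 (DOCK10) to 0.81 ± 0.41 (DLX6).

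Other genes moved in opposite directions. After CER1 and DUSP6, the angiopoietin ANGPT2 rose from 0.286, 0.808 and 0.306 to 1.36, 1.96 and 2.71 CPM in Dox (2.06 ± 0.33, and 2.74 without Dox 12 h replicate 2) and fell from 2.96, 2.38 and 2.07 to 0.466, 0.630 and 0.548 CPM in NoDox (-2.17 ± 0.32). The matrix protease ADAMTS15 rose from 11.5, 12.3 and 8.36 to 38.7, 51.0 and 51.7 CPM and fell in NoDox (-1.78 ± 0.29). In the other direction, CADM2, a synaptic adhesion molecule, fell from 9.80, 13.3 and 10.9 to 4.90, 4.48 and 5.11 CPM (-1.23 ± 0.14) and rose in NoDox from 15.4, 18.5 and 18.1 to 32.7, 33.0 and 34.9 CPM (0.95 ± 0.11). The RNA-binding gene KHDRBS2 fell from 9.69, 9.12 and 7.95 to 5.81, 2.83 and 3.21 CPM (-1.17 ± 0.18) and rose in NoDox (1.25 ± 0.17), and the T-type calcium channel CACNA1I fell from 4.90, 8.01 and 5.30 to 2.97, 2.61 and 3.53 CPM and rose in NoDox (1.52 ± 0.28). The nuclear envelope gene SYNE3 (-1.32 ± 0.27 and 1.19 ± 0.34) and the parathyroid hormone receptor PTH1R (-0.95 ± 0.19 and 1.00 ± 0.21) did the same.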

How the data were processed

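Polyadenylated RNA of 21 libraries in 7 groups of 3 was counted per gene. The authors deposited raw counts, 1 whole number per gene and library. The submitters' processing notes name hg38, STAR 2.7.9, Subread 2.0.3 and DESeq2. For the annotation and the strand setting the sources used here give nothing. The deposited normalized values, a signal on a linear scale, are counts that the authors scaled per sample. They served only in an alternative, as log2(value + 1).

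Of 61268 features, 19655 passed filterByExpr and were tested with edgeR 4.0.16 (R 4.3.3), with TMM scaling, a quasi-likelihood F test with robust fitting of all 7 groups (14 residual degrees of freedom, biological coefficient of variation 7.24%) and Benjamini-Hochberg adjustment over all genes at 0.05. The ± of a log2 fold change is an approximate standard error, the size of the log2 fold change over the square root of F. Each group has 3 libraries. CPM values use TMM-scaled totals, which ran from 14439089 to 33842591 before scaling. Scaling factors were 1.12 to 1.14 at Dox 12 h and 1.00 to 1.01 at Dox 24 h.

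Named genes were the transgene and GSX2, then the 14 largest increases and 14 largest decreases past the threshold with a mean of at least 2 CPM in the higher group and groups wholly apart, leaving out clone-style names. For each combination of directions in both steps 5 genes were named, and of each of 44 lists (890 genes, 810 tested) up to 4 members with the largest change, with other members given by value. The comparison, the lists and the rule were chosen with earlier results of these data known. No list was tested as a set. Every list count of the Dox step is to be read beside the 21.5% of all genes that rose and the 21.1% that fell. Some genes that the rule names are not reported here, but they remain in the list counts.

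On simulated counts of 19655 genes with 100 genes changed at a log2 fold change of 1 and 100 at 2, the Dox step recovered 100% and 100% with 13 false calls, and the difference of the steps 90% and 99% with 12. The changed genes had a mean of at least 1 CPM, equally many rose and fell, and all others were unchanged. In the data 42.6% of genes were called, and 414 of the 710 at least 2-fold lower genes were under 2 CPM. The simulation does not cover changes that wide or genes that low. Alternatives changed the scaling (DESeq2 size factors, or library totals alone), the tool (the Wald test of DESeq2 1.42.0, or limma 3.58.1 on the deposited normalized values), the filter (none), the groups fitted, the replicate block, the null value of the test (a log2 fold change of 1 in place of 0) and the replicates, each left out in turn. Promoter sequences are from RefSeq, GRCh38.p14.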

Additional observations from a re-analysis of the deposited data

Results flagged for a closer look

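For 31 of the genes named for the largest changes or for opposite directions, the change from 12 to 24 h with withdrawal differed from the change over the same hours without doxycycline by the test of the difference itself (edgeR). Only genes past the threshold of that test are listed. They had been named for the size or direction of their Dox step, which the difference contains, so the test is not independent of the choice. Among all genes that rose in Dox and fell in NoDox, the difference was called for 664 of 664. For the reverse directions it was called for 442 of 442. Genes past both thresholds in opposite directions were nearly bound to pass the test of the difference. These counts therefore add no separate support. Values are the Dox step minus the NoDox step on the log2 scale.

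The Dox step was the higher one for SELE by 8.72, CER1 by 6.15, DUSP6 by 5.29, DIO3 by 4.68, FAM181B by 4.48, CDH6 by 4.48, ERMN by 4.37, FOXI1 by 4.27, ANGPT2 by 4.24, FZD5 by 4.17, LRRC3B by 4.08 and SLITRK2 by 3.95. It was also higher for ADAMTS15 by 3.90, RTL1 by 3.51, ISL1 by 3.47, LRRTM3 by 3.13 and GRIK3 by 3.09. The values of SELE rest on 4 reads at Dox 12 h.

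The Dox step was the lower one for GSX2, with a difference of -6.11, MYRIP with -3.73, SUSD3 with -3.04, IL10RA with -2.79, SYNE3 with -2.52, CACNA1I with -2.52, KHDRBS2 with -2.43, DENND2C with -2.40 and ULBP1 with -2.27. Smaller differences were found for CADM2 with -2.18, KCNA2 with -2.12, PTH1R with -1.96, CHAC1 with -1.80 and PLCG2 with -1.25.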

How the results depend on the processing

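Library totals as the only scaling gave 2415 higher and 7503 lower genes in the Dox step and 1914 higher and 5719 lower in the difference of the steps. With a null log2 fold change of 1 in place of 0, the test gave 366 and 73 in the Dox step, 13 and 14 in the NoDox step and 341 and 90 in the difference. Under the other alternatives each count stayed within 1.5 times the reported one. Leaving out 1 library at a time gave 3581 to 4111 higher and 3338 to 3967 lower genes in the Dox step, 2699 to 3047 and 2554 to 2909 in the NoDox step, and 2802 to 3381 and 2402 to 3061 in the difference. Of 192 named genes and list members, 192 kept their direction and call with DESeq2 size factors, the DESeq2 Wald test and the replicate block, 8 lost the call with library totals (POU3F4, RBL2, NDUFA1, RPS2, RPL3, RPL15, COL1A1 and COL3A1) and 6 to 14 lost it when 1 library was left out. None reversed.

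Whether replicate numbers pair the samples is not in the labels, and the main fit used no pairing. Residuals of same-numbered libraries correlated by 0.06, 0.01 and 0.05 in Dox and by 0.0978, 0.0456 and 0.0363 in NoDox. All were positive and under 0.1. As a hint from the data only, each NoDox library and each Dox 12 h library correlated best with its own number. Replicate 2 of Dox 24 h correlated slightly better with replicate 3 of Dox 12 h than with its own number. A weak pairing is therefore not excluded. With the replicate block the Dox step held 4270 higher and 4204 lower genes, the NoDox step 3559 and 3402, and the difference 3193 and 2961.

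Without the Dox 12 h replicate 3, the LGE list held 19 higher and 0 lower genes, dorsal pallial regulators 19 and 0, ERK-responsive genes 17 and 1, and heat shock genes 2 and 10. In the same setting 1 mitochondrially encoded gene fell and 1 rose, against 6 and 0 with it, and 11 ribosomal protein genes rose, against 3. Without any 1 of the other Dox libraries, 0 ribosomal protein genes rose, as with library totals. Without Dox 24 h replicate 1, 1 mitochondrially encoded gene fell. Genes near 0.1 CPM, such as SELE at Dox 12 h and CDH18 at Dox 24 h, are limited by depth.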

Other observations

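Long noncoding and protein-coding genes split differently by direction. Of 1477 long noncoding RNA genes with a RefSeq type, 26.3% rose and 9.34% fell in the Dox step, against 22.6% and 25.3% of 14529 protein-coding genes. Under the at least 2-fold rule, 152 long noncoding genes were higher and 43 lower, and 539 and 552 protein-coding genes. With library totals as the only scaling, 18.4% of the long noncoding genes rose and 17.5% fell, against 12.5% and 45.3% of the protein-coding genes.

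Clock genes moved in both arms, with 11 of 19 higher and 3 lower in the Dox step and 8 higher and 1 lower in NoDox. Of all genes, 21.5% rose and 21.1% fell in the Dox step, and 17.9% and 17.2% in NoDox. With library totals as the only scaling the Dox step held 8 and 5. BMAL1, the activator of the clock, fell from 8.08, 7.39 and 7.14 to 3.17, 2.31 and 2.80 CPM (-1.45 ± 0.15, edgeR adjusted p = 3.68e-09), with a NoDox step of 0.22 ± 0.15. Its repressors PER2 (1.29 ± 0.13) and NR1D2 (1.05 ± 0.08) rose, and TEF, a clock output factor, rose alike in both arms (1.26 ± 0.15 and 1.26 ± 0.15).

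In the retinoic acid pathway 6 of 17 genes rose and 5 fell, where 21.5% of all genes rose and 21.1% fell. In the NoDox step 3 rose and 0 fell. With library totals as the only scaling 6 rose and 6 fell in the Dox step, and the median turned from 0.09 to -0.08. The retinol transporter STRA6 rose from 8.40, 10.5 and 9.17 to 48.0, 37.8 and 39.2 CPM (2.16 ± 0.11, edgeR adjusted p = 4.27e-16), above its NoDox 24 h mean of 9.89 CPM. The retinaldehyde dehydrogenase ALDH1A1 (-2.75 ± 0.82) and the retinol dehydrogenase RDH10 (-0.99 ± 0.20) fell. The ALDH1A1 call was lost without Dox 24 h replicate 1 (edgeR adjusted p = 0.0508). Of 20 p53 target genes 11 rose and 6 fell, with the pro-apoptotic BBC3 higher (1.13 ± 0.10) and TP53I3 lower (-0.78 ± 0.09).

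Among boundary and hedgehog genes, 5 of 12 ventral pallium and boundary genes rose and 1 fell, and 7 of 14 hedgehog and ventral midline genes rose and 2 fell. Of all genes, 21.5% rose and 21.1% fell. GAS1, a hedgehog co-receptor, rose from 31.0, 27.6 and 23.4 to 98.6, 93.1 and 97.7 CPM (1.81 ± 0.09), and GLI3, which represses hedgehog targets in the dorsal telencephalon, rose from 102, 92.9 and 78.0 to 217, 200.0 and 179 CPM (1.13 ± 0.10). NRG1, a neuregulin ligand, rose by 1.72 ± 0.11, and the EGF receptor ligand TGFA fell (-1.77 ± 0.53), a call lost without replicate 1 of Dox 12 h (edgeR adjusted p = 0.0513) or of Dox 24 h (0.0626).

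Markers of other cells were counted as well, and their shares are to be read beside the 21.5% of all genes that rose and the 21.1% that fell. Of the markers tested, 4 of 7 pluripotency genes rose and 1 fell, 2 of 7 mesoderm and endoderm genes rose and 2 fell, 2 of 6 neural crest genes rose and 2 fell, and 3 of 11 genes of cortical hem and choroid plexus rose and 2 fell. The corresponding counts were 1 and 0 of 5 for midbrain and hindbrain, 2 and 2 of 9 for surface epithelium, and 6 and 4 of 14 for astrocytes and oligodendrocytes. SOX17, FOXA2 and EN1 had 0 reads in both groups. Nuclear-encoded respiratory chain genes gave 6 higher and 6 lower of 36, and 0 and 22 with library totals as the only scaling. Mitochondrially encoded genes gave 0 higher and 6 lower of 13, and ribosomal protein genes 3 higher and 0 lower of 31. The last 3 calls were lost with library totals or without any Dox library other than Dox 12 h replicate 3.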
